A study of Mus musculus with 6 samples.

Results

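The cytochrome P450 genes of families 1 to 4 encode the enzymes that oxidise drugs, solvents, retinoids and fatty acids. They were examined in whole adrenal glands of 2 mouse strains, BPH, a hypertensive strain, and BPL, a hypotensive strain. The members were all probe sets of the Affymetrix MG_U74Av2 array whose annotation names exactly 1 gene with a symbol of the form Cyp, a family number from 1 to 4, a letter and a number. This gave 33 of 12488 probe sets, for 29 of the 8252 genes named alone by a probe set, and 4 genes had more than 1 probe set. Another 7 probe sets annotated to several P450 genes, and 1 whose symbol ends in a letter (Cyp4a12b), were outside the rule.

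Total RNA of adrenal glands was hybridised to 3 arrays of each strain, numbered 1 to 3. The labels name no treatment, and age, sex, and whether an array held 1 animal or a pool are not given in the sources used here, so p-values measure the spread between these samples, which may be technical. Each value is the intensity of a probe set, a group of short probes meant to query 1 transcript, as deposited. Of the members, 4 probe sets marked _f_at and 1 marked _s_at can also read related transcripts. Arrays BPH 1 and BPH 2 were washed on fluidics station 2 and the other 4 on station 1, and with BPH 3 as the only BPH array on station 1, station and strain overlap in part. BPH 1 and BPL 2 carried skeletal muscle transcripts: the summed intensity of 17 muscle probe sets was 194872 and 210396 there, and between 14214.8 and 29696.4 on the other arrays. The adrenal label was borne out by its markers. Cyp11a1, the side chain cleavage enzyme that starts steroid synthesis, lay between 77179.4 and 93026.7 on the 6 arrays, and of 20 tested probe sets of 14 cortex and medulla genes none was called between the strains, with 16 higher on average in BPH.

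P450 enzymes of these families sit in the endoplasmic reticulum and take electrons from the reductase Por, in some reactions with help from cytochrome b5. Liver holds most of them, and many are switched on by receptors that sense foreign compounds or fatty acids, such as Ahr, Nr1i2 (PXR), Nr1i3 (CAR) and Ppara. The steroid hormones of the adrenal cortex are made by other P450 families, which are not members here.

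Which members stand above background had to be judged without detection calls, because the deposited table has none. As a stand-in, 73 probe sets of 56 genes that belong to eye, germ cells, milk gland, pituitary, pancreas, lung, tooth, skin or activated lymphocytes were taken as a background reference. The background level of an array was the 90th percentile of their intensities, which lay between 1532 and 2195 on the 6 arrays. A probe set was taken to be above background where it exceeded this level on all 3 arrays of at least 1 strain. Probe sets bind with different strength, so this level is a guide and not a limit measured for each probe set. Some reference probe sets were themselves above it in both strains, such as Lhb (2742.6 to 4783) and Gh (2435.5 to 3684.3). Exceeding the level therefore does not by itself show that a gene is expressed.

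By this measure 4 of the 33 probe sets were above background, each in both strains, and 29 were not. The 4 were Cyp1b1, which oxidises oestradiol and polycyclic hydrocarbons, Cyp2e1, which oxidises ethanol and small solvents, Cyp4b1, which acts on fatty acids and some plant toxins, and Cyp4v3, a fatty acid hydroxylase. Of the 29, 26 exceeded the level on no array. In all, 9 probe sets lay under an intensity of 201.3, the 20th percentile of the whole table, on all 6 arrays, 10 on some arrays and 14 on none. The count of 4 depends on the level chosen: it was 9 at the 75th percentile of the reference, 10 at the 40th percentile of all probe sets of each array, and 1, Cyp2e1, against the brightest reference probe set. The 5 added at the 75th percentile were Cyp2a12, Cyp2c38 and Cyp4f13 in both strains and Cyp2c39 and Cyp2f2 in BPH. Cyp1b1, between 2233.8 and 4028.4, was brighter than the reference probe set of Lhb on BPH 2 alone. Lhb lay between 2742.6 and 4783. The share of all probe sets above the level was not counted.

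**Figure D1:**
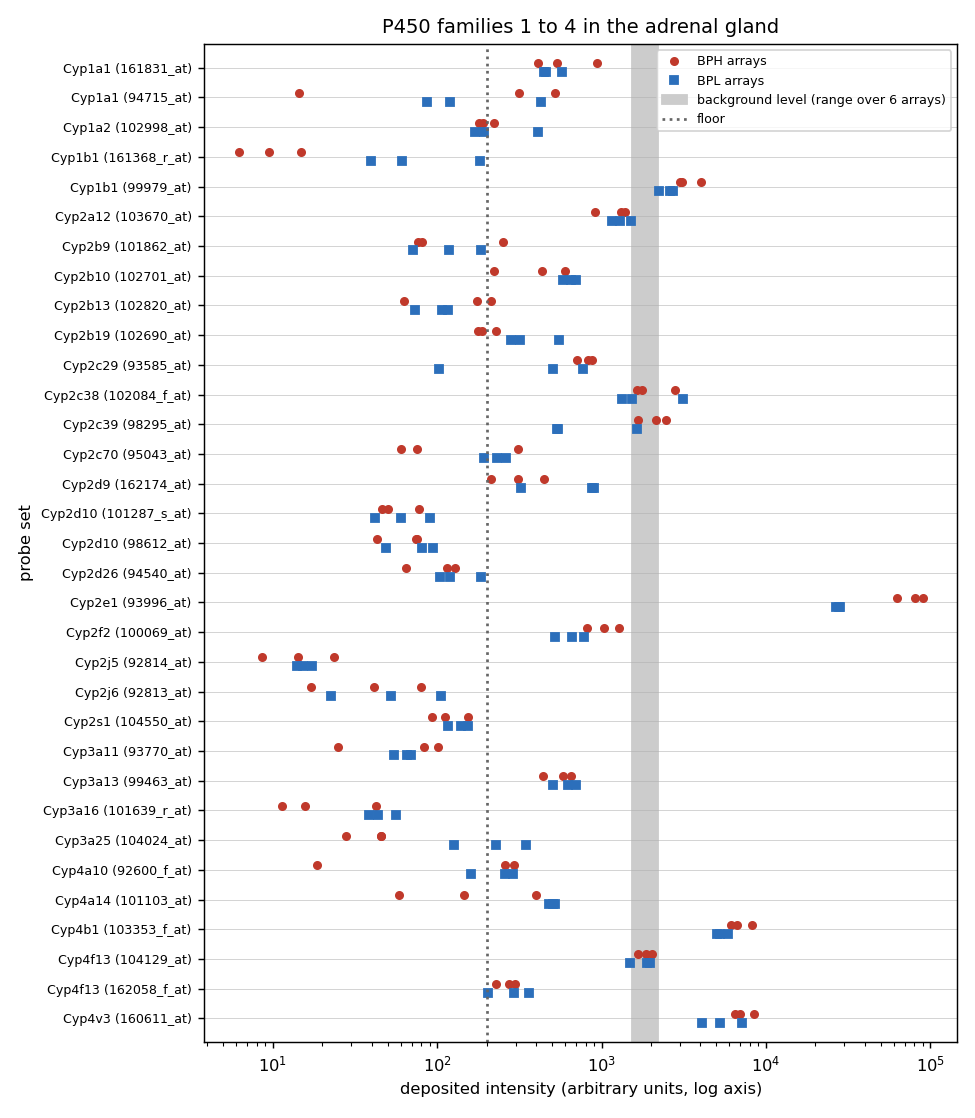
Intensity of each P450 probe set on the 6 arrays, with a log axis of deposited intensity across and 1 row per probe set (circles BPH, squares BPL). The grey band spans the background level over the arrays, from 1532 to 2195, and the dotted line is the floor of 201.3; Cyp1b1, Cyp2e1, Cyp4b1 and Cyp4v3 are the rows that lie wholly to the right of the band.

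The promoters of these 4 genes are shown because they are the family's transcripts measured above background. Each is the 250 bases before the RefSeq start on GRCm38.p6, read 5′ to 3′ on the gene's strand, and the capitals mark the motifs found by a search described after them. The windows are chr17:79715062-79715311 (minus strand) for Cyp1b1, chr7:140763569-140763818 (plus strand) for Cyp2e1, chr4:115647722-115647971 (minus strand) for Cyp4b1 and chr8:45333164-45333413 (minus strand) for Cyp4v3.
Cyp1b1: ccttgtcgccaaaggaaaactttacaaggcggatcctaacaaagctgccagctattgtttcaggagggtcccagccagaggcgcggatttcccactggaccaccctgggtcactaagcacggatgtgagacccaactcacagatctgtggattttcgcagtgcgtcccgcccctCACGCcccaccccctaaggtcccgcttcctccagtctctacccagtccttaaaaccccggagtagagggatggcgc
Cyp2e1: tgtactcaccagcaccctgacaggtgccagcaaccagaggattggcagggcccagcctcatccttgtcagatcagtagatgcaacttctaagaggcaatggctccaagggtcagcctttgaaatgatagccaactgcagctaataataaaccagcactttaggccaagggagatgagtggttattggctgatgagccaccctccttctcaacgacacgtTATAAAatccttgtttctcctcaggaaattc
Cyp4b1: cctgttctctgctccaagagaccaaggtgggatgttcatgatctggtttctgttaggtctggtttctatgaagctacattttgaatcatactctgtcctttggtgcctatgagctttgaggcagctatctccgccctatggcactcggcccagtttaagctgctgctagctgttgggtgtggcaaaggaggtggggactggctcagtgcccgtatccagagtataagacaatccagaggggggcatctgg
Cyp4v3: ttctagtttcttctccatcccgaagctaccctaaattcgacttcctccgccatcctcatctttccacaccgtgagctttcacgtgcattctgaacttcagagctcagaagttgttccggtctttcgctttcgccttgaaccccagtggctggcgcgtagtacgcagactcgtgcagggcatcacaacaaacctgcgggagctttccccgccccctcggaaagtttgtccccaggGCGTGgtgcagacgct

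Windows were found for 27 of the 29 genes, 29 windows in all, with none for Cyp4a10 and Cyp4a14. Both strands were searched. The TATA box, searched as TATAAA, was in 13 of the 29 member windows and in 12.4% of 32851 windows of the same length. A match counted wherever it lay, and some lay on the other strand, as in Cyp2d9, or far from the start, as in Cyp3a11. The core bound by the aryl hydrocarbon receptor Ahr, searched as GCGTG, was in 4 member windows and in 28.2% of all windows. A site of the adrenal receptor Nr5a1 (SF-1), searched as AAGGTCA, was in 5 member windows of 4 genes, since the 2 windows of Cyp3a25 overlap and hold the same sites, and in 4.08% of all windows. None of these strings holds another. Cyp2e1 has TATAAA, its first base 31 bases before the start. GCGTG begins 16 bases before the start in Cyp4v3, and in Cyp1b1 it lies on the other strand, its 5 bases starting 76 before the start. Cyp4b1 has none of the 3 strings. A match is only a run of letters, and neither a match nor its absence says whether a factor binds there.

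The comparison of BPH with BPL asks which of these transcripts separate the strains. Of the 33 probe sets, 9, of 9 genes, passed the filter on low values and were tested with limma among 7293 probe sets. Of these 9, 1 was called at an adjusted p under 0.05, higher in BPH, and none was called lower, while over all tested probe sets 2.52% were called, 1.56% higher and 0.96% lower. At an unadjusted p under 0.05 were 4 of the 9 and 19.3% of all tested. Log2 differences are BPH minus BPL throughout. Cyp2f2 passed the filter through its BPH arrays, since its BPL mean of 656.2 lay under the filter's intensity of 668.1. The median log2 difference was 0.41 over the 9 tested members and 0.026 over all tested probe sets. With no filter, all 33 were tested among 12422 probe sets and none was called, with 6 at an unadjusted p under 0.05. The median log2 difference was then 0, as over all probe sets. The floor gives exactly 0 to the 9 members under it on all 6 arrays, so that median says little about the family. In that fit 0.419% of all probe sets were called, 0.258% higher and 0.161% lower, and 13.6% had an unadjusted p under 0.05.

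Cyp2e1 was the called gene. Its intensity was 90498.7, 63039 and 80979.5 on BPH 1, 2 and 3, and 27800.7, 28390.9 and 26776.6 on BPL 1, 2 and 3. All BPH arrays lay above all BPL arrays, and the BPL arrays lay close together. BPH averaged 78172 ± 13943 and BPL 27656 ± 817 (SD, n = 3 each), a log2 difference of 1.48 (SE 0.15, limma adjusted p = 0.00246). That is 2.80-fold, with a 95% interval from 2.21 to 3.54.

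The difference in Cyp2e1 lay between 1.37 and 1.63 on the other choices tried, and was not called on all of them. On station 1 the single array BPH 3 meets the 3 BPL arrays, and the difference was 1.55 (SE 0.21, limma adjusted p = 0.0727), with BPH 3 assumed to vary like the others. A fit with station as a block rests on the same comparison, since station 2 held BPH arrays alone, and gave the same 1.55 (SE 0.23, limma adjusted p = 0.061). Without the filter it was 1.48 (limma adjusted p = 0.0545). Leaving out any 1 array gave values from 1.37 to 1.63, each of them called. Without BPH 1 and BPL 2, the arrays with muscle transcripts, it was 1.39 (SE 0.14, limma adjusted p = 0.00611).

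**Figure D2:**
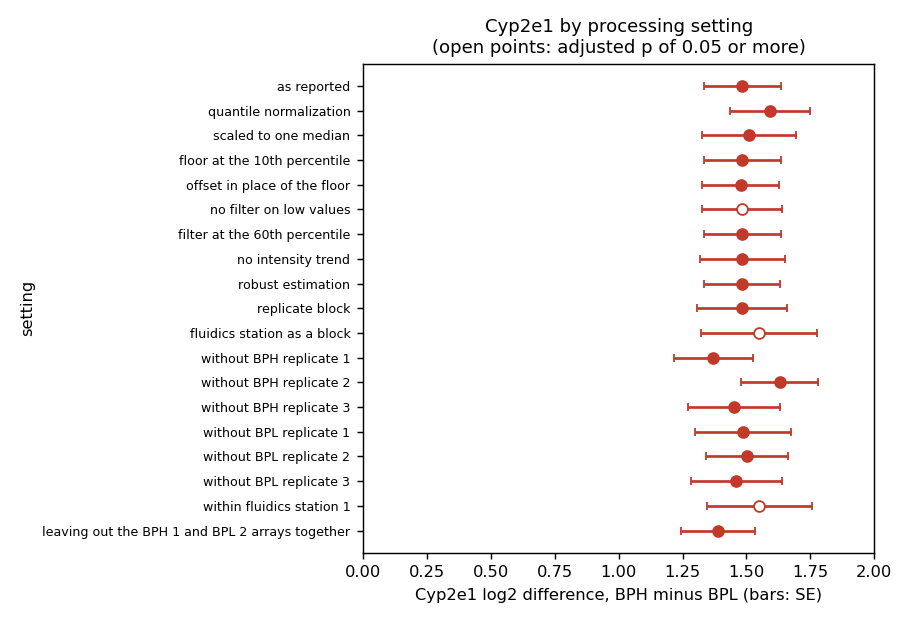
Log2 difference of Cyp2e1, BPH minus BPL, under the reported setting and each alternative, with bars for the SE and open points where the adjusted p was 0.05 or more. The values lie between 1.37 and 1.63, and the 3 open points are the fit without a filter, the station block and station 1 alone.

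Cyp2e1 is a liver enzyme above all, and markers of liver and other tissues were read on the same arrays. Of 10 liver probe sets none was above background: Alb, serum albumin, lay between 681.2 and 1040.7 and Fgb, a fibrinogen chain, between 15.5 and 46.4. The summed intensity of the liver list ran from 2538.2 to 3286.6 in BPH and from 2321.6 to 3539.5 in BPL, so the strains overlapped.

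Fat cells also make Cyp2e1, and fat markers were present on all arrays. The 10 brown fat probe sets had lower sums in BPH, from 44066.4 to 73482.3 against 115026 to 333911 in BPL, and 3 of 8 tested were called lower and none higher. These markers run opposite to Cyp2e1. Ucp1, the uncoupling protein of brown fat, was 51082.9, 98186.5 and 33362.4 on BPL 1, 2 and 3, while Cyp2e1 moved over the same arrays only between 26776.6 and 28390.9. The sums of the 10 general adipocyte probe sets overlapped, from 136469 to 164509 in BPH and from 128847 to 228714 in BPL. Of 8 tested 1 was called, Lipe, lower in BPH at -1.25 (SE 0.25, limma adjusted p = 0.0376). Retn alone was higher in BPH, at 0.58 (SE 0.17, limma adjusted p = 0.112), not called. Adipoq, the fat hormone adiponectin, was 61583.5, 52344.3 and 56202.6 in BPH and 56692, 83595.6 and 45742.4 in BPL. Of 17 tested endothelial and stromal probe sets none was called, with sums from 93864.1 to 95734.7 in BPH and from 82020.3 to 88650.9 in BPL. The sums lean on the brightest probe set, Dcn, which averaged 36459 in BPH and 25460 in BPL. Of the 17, 10 had a positive log2 difference, and the median was 0.097. No marker of the medulla was called, and the values of several were higher in BPH, as those of Cyp2e1 were. Pnmt, which makes adrenaline, ran from 30494.5 to 41309.4 in BPH and from 12472.8 to 25316.5 in BPL, a log2 difference of 0.98 (SE 0.24, limma adjusted p = 0.0729), and its other probe set differed by 1.19 (SE 0.30, limma adjusted p = 0.077). Th, the first enzyme of catecholamine synthesis, differed by 0.78 (limma adjusted p = 0.169), Chga, a secretory granule protein, by 0.69 and -0.050 at 2 probe sets, Chgb, its relative, by 0.19 and Ddc, the next catecholamine enzyme, by 0.079. Pik3c2g, a marker of the transient inner zone of the mouse cortex, was below background, from 39.9 to 221.6 in BPH and from 304.4 to 460.6 in BPL. The part of these tissues in the Cyp2e1 difference was not tested, and in a whole gland more cells of a type and more RNA per cell cannot be told apart.

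Of 9 kidney probe sets, Pck1, a glucose-synthesis enzyme that liver and fat also make, was above background and the other 8 were not, with Umod, the defining tubule protein, between 26.3 and 154.8. Sex is not given, and P450 levels differ by sex in mouse tissues. Xist, which marks female cells, lay between 44.3 and 414.2, not above background on any array. The Y-linked Eif2s3y ran from 1987.6 to 2654.2 in BPH and from 1360.3 to 1540.4 in BPL, with a log2 difference of 0.67 (SE 0.17, limma adjusted p = 0.0775), whereas the Y-linked Kdm5d, below background, ran from 65.7 to 235.5 in BPH and from 346.2 to 534 in BPL. The Y-linked Uty overlapped, from 565.5 to 1329.9 in BPH and from 660 to 707.8 in BPL, and the part of sex in the Cyp2e1 difference was not tested.

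**Figure D3:**
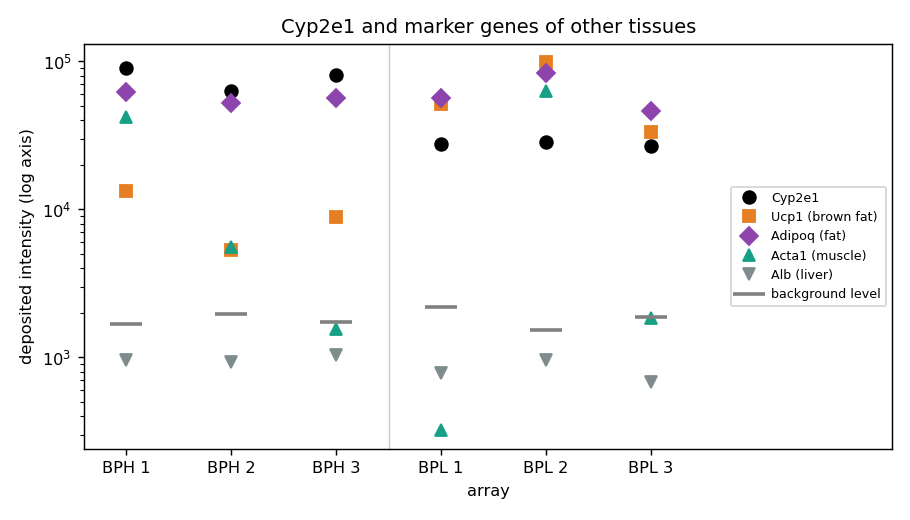
Deposited intensity on a log axis for Cyp2e1, Ucp1 (brown fat), Adipoq (fat), Acta1 (muscle) and Alb (liver) on each array, with the background level as a grey bar. Cyp2e1 is at least 63039 on the BPH arrays and at most 28390.9 on the BPL arrays, Ucp1 runs the other way, Acta1 is high on BPH 1 and BPL 2, and Alb is under the bar on all 6.

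In family 1, whose Cyp1a1, Cyp1a2 and Cyp1b1 are the classic targets of Ahr, 1 of 2 Cyp1b1 probe sets was above background. It had 3016.1, 4028.4 and 3087.1 in BPH and 2736.1, 2233.8 and 2610.7 in BPL. BPH lay above BPL with no overlap, but by less than for Cyp2e1, and the log2 difference of 0.41 (SE 0.16, limma adjusted p = 0.214) was not called. The other Cyp1b1 probe set did not exceed 181.4 on any array and was under the floor on all 6, where values have no order. Cyp1a1, which activates polycyclic hydrocarbons, ranged from 408.6 to 939.2 at one probe set and from 14.4 to 523.2 at the other. Cyp1a2, which clears caffeine in liver, ranged from 170.5 to 409.6, and neither Cyp1a gene exceeded the background level on an array.

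In family 2, the largest here with 18 probe sets of 17 genes, Cyp2e1 alone was above background, and 4 more probe sets were tested. Cyp2c39, a retinoic acid hydroxylase of the Cyp2c group, had 1661.1, 2143.9 and 2475.8 in BPH and 544.2, 1639.8 and 533.4 in BPL. Its BPL arrays disagreed: BPL 2 stood just under the lowest BPH array and the other BPL arrays far below. The log2 difference was 1.40 (SE 0.42, limma adjusted p = 0.112), not called. Without BPL 2 it was 1.94 (SE 0.25, limma adjusted p = 0.0095) and without BPH 1 and BPL 2 it was 2.10 (SE 0.27, limma adjusted p = 0.0134), so the call turns on BPL 2.

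Cyp2c38, a close relative of Cyp2c39 read by a probe set that can share probes with its family, did not follow it. It had 1642.8, 1751.2 and 2793.3 in BPH and 3126.1, 1338.3 and 1533.4 in BPL, with full overlap and a log2 difference of 0.11 (SE 0.33, 95% interval from -0.65 to 0.86). The difference between these 2 probe sets was not itself tested. Cyp2f2, the naphthalene-oxidising enzyme of the airway, had 812, 1042.6 and 1276.4 in BPH and 661.3, 521 and 786.2 in BPL. Its BPH arrays were all higher, but the log2 difference of 0.67 (SE 0.30, limma adjusted p = 0.264) was not called and no array exceeded the background level. Cyp2a12, a liver steroid hydroxylase, ran from 907.8 to 1381.6 in BPH and from 1162.8 to 1514.3 in BPL, with a log2 difference of -0.16 (SE 0.23, limma adjusted p = 0.757).

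The remaining 13 probe sets of family 2 were below the filter. Cyp2b10, the classic target of CAR, ranged from 222.8 to 703.3, and its neighbours Cyp2b9, Cyp2b13 and Cyp2b19 from 63 to 552.1. Cyp2c29 ranged from 103.4 to 875.3, with BPL 2 the low array, and Cyp2c70 from 60.6 to 312.7. Cyp2d9 reached 895.8, whereas Cyp2d26 and both probe sets of Cyp2d10 stayed under the floor on all arrays, as did the arachidonic acid epoxygenases Cyp2j5 and Cyp2j6 and the epithelial enzyme Cyp2s1. Of these low probe sets, Cyp2b19, an epidermal enzyme, had non-overlapping arrays, from 176.2 to 229.5 in BPH and from 280.8 to 552.1 in BPL, with 2 arrays under the floor.

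Family 3 holds the main drug-metabolising enzymes of liver and gut, and none of its 4 probe sets was above background or passed the filter. Cyp3a13 ranged from 442.4 to 703.6. Cyp3a11 and Cyp3a16 were under the floor on all 6 arrays. Cyp3a25 lay between 28 and 45.6 in BPH and between 126.8 and 346.8 in BPL, below the background level, with all BPH arrays and 1 BPL array under the floor.

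Family 4 hydroxylates fatty acids, and 2 of its 6 probe sets were above background. Cyp4b1 had 6712.7, 6092.8 and 8236 in BPH and 5261.6, 5918.3 and 5022.3 in BPL. Its only probe set, like that of Cyp2c38, can share probes with its family. The strains did not overlap, though BPH 2 and BPL 2 lay close, and the log2 difference of 0.37 (SE 0.14, limma adjusted p = 0.211) was not called. Cyp4v3, the mouse counterpart of the human gene behind a crystalline disease of the retina, had 6513.1, 8424.9 and 7001.8 in BPH and 5264.5, 7149 and 4091.1 in BPL. BPL 2 lay above 2 of the BPH arrays, and the log2 difference was 0.44 (SE 0.20, limma adjusted p = 0.279).

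Cyp4f13, of the group that breaks down leukotrienes and other fatty acid signals, had 2028.7, 1861.4 and 1673.5 in BPH and 1900.6, 1500.3 and 1960.9 in BPL. It did not separate the strains, with a log2 difference of 0.059 (SE 0.18, 95% interval from -0.34 to 0.46), and its second probe set ranged from 204.4 to 363.9. The Ppara targets Cyp4a10 and Cyp4a14 did not exceed 293.1 and 522.8. Cyp4a14 was 401.8, 146.1 and 58.9 in BPH and 522.8, 508.5 and 480.3 in BPL, without overlap and below background throughout.

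Counting all 33 probe sets, above background or not, the arrays of the strains did not overlap for 9, with BPH above for 5 and below for 4, while 21.3% of all 12422 probe sets did not overlap, 10.5% with BPH above and 10.8% with BPH below. The 5 higher were the Cyp1b1 probe set above background, Cyp2c39, Cyp2e1, Cyp2f2 and Cyp4b1, all tested. The 4 lower were the other Cyp1b1 probe set, Cyp2b19, Cyp3a25 and Cyp4a14, none of them above background or tested. Values under the floor have no order, and with them tied 7 did not overlap, the same 5 above and Cyp2b19 and Cyp4a14 below. Over all probe sets that share was 18.9%, 10% with BPH above and 8.86% with BPH below.

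**Figure D4:**
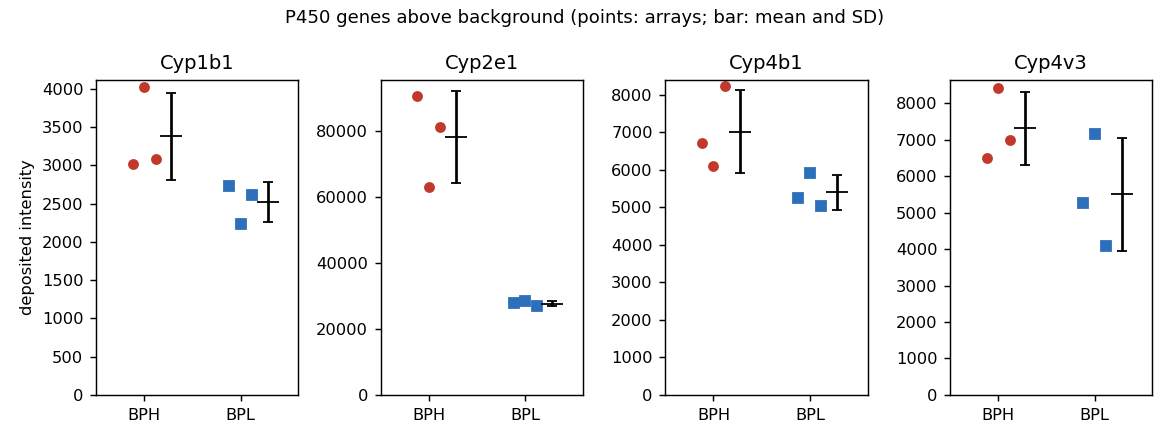
Deposited intensity of the 4 P450 genes above background, with a point for each array and a bar for the mean and SD of the 3 arrays of a strain; each panel has its own axis from 0. Cyp2e1 shows a gap between strains wide against its spread, Cyp1b1 and Cyp4b1 a small gap, and Cyp4v3 overlaps.

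**Figure D5:**
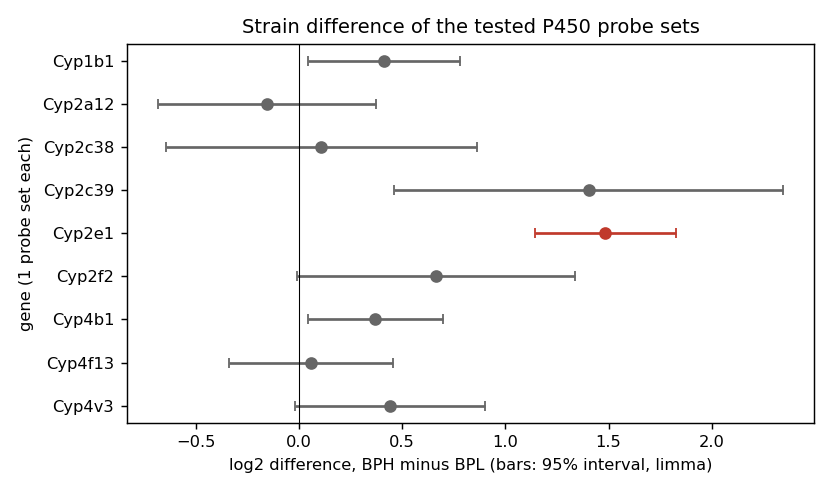
Log2 difference, BPH minus BPL, of the 9 tested P450 probe sets with 95% intervals from limma. Cyp2e1 (red) is the called one at 1.48, Cyp2c39 has a similar value of 1.40 with a far wider interval, and Cyp2a12, Cyp2c38 and Cyp4f13 lie near 0.

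The members lie mostly in gene clusters. With at most 10 coding genes apart counted as 1 cluster, Cyp2s1, Cyp2b10, Cyp2b13, Cyp2b9, Cyp2b19, Cyp2a12 and Cyp2f2 form 1 cluster of 7 on chromosome 7, and Cyp2c29, Cyp2c39, Cyp2c38 and Cyp2c70 form 1 of 4 on chromosome 19. Of the cluster of 7, Cyp2f2 and Cyp2a12 were tested, and their differences of 0.67 and -0.16 have opposite signs. Cyp2e1 stands outside that cluster, with no other member near it. Of the 10 coding genes on each side of it, 5 had a probe set with their name alone, all on 1 side and at least 6 genes away: Bet1l (-0.33), Ric8a (0.18), Sirt3 (-0.47), Psmd13 (0.034) and the brown fat gene Cox8b (-1.47 and -1.13 at 2 probe sets). None of their log2 differences was called.

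The partners of the P450 enzymes were read from lists of the electron donors and heme enzymes, the regulators, the enzymes that act on P450 products, and the other P450 families. Of 13 tested donor and heme probe sets none was called in either direction. Cyb5a, cytochrome b5, which passes electrons to some P450s, had the smallest p, with a log2 difference of 0.49 (SE 0.11, limma adjusted p = 0.0582) and intensities of 17876 ± 635 in BPH against 12767 ± 871 in BPL (SD, n = 3 each). Hmox2 (-0.37), a heme-degrading enzyme, and the second probe set of Cyb5b (-0.20), the outer mitochondrial cytochrome b5, followed. Next was Cyb5r1 (0.27), a cytochrome b5 reductase, at a probe set not above background. Its brighter probe set, above background in both strains, differed by -0.0059. Por was not analysed here, as no probe set carries its name alone.

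Of 15 tested regulator probe sets 1 was called. Cebpb, a transcription factor of liver and fat that is also induced in stress, was higher in BPH, with 22850 ± 1523 against 14998 ± 1741 (SD, n = 3 each) and a log2 difference of 0.61 (SE 0.13, limma adjusted p = 0.0422). The fatty acid receptor Ppara differed by -0.85 (SE 0.27, limma adjusted p = 0.136), the sterol receptor Nr1h3 by -0.70 (SE 0.21, limma adjusted p = 0.117) and the fat cell receptor Pparg by -0.91 (SE 0.32, limma adjusted p = 0.171), none of them called. Ppara was 6135, 9491.5 and 4077.1 on BPL 1, 2 and 3, highest on the array with most Ucp1. The foreign compound receptors were looked up after the values were seen. Ahr and Nr1i2 were not above background, and the 3 probe sets of Nr1i3 differed in sign (-0.37, 0.15 and 0.11), none of them called.

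Of 10 tested probe sets of partner enzymes none was called. Ephx2, which hydrolyses fatty acid epoxides, had the smallest p at -0.77 (SE 0.21, limma adjusted p = 0.0918), with 3685, 2935.5 and 3328.3 in BPH and 5362.8, 7735 and 4292.3 in BPL. Ephx1, the microsomal epoxide hydrolase that works on P450 products of foreign compounds, differed by 0.58 (SE 0.19, limma adjusted p = 0.155). The carboxylesterase Ces1d (-0.58) and the alcohol dehydrogenase Adh1 (0.27) were not called either. Of 6 tested probe sets of other P450 families none was called: Tbxas1, thromboxane synthase, differed by -0.18, Cyp7b1, an oxysterol hydroxylase, by -0.12, Cyp11a1 by -0.060 and Cyp21a1, the steroid 21-hydroxylase, by 0.063.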

How the data were processed

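Total RNA of adrenal glands was measured on Affymetrix MG_U74Av2 arrays, 3 of BPH and 3 of BPL. The intensity of each probe set was used as deposited, with array medians between 1003.45 and 1114.65. The sources used here do not give the software that made it. Gene names came from the platform annotation (10855 probe sets with 1 gene, 396 with several, 1237 with none), and all 33 member symbols matched the RefSeq table of GRCm38.p6. Values under the 20th percentile of the table (201.3) were set to that floor before log2 was taken. The 66 control probe sets and those whose mean log2 value lay under the 40th percentile (668.1) were left out of the test. This left 7293 probe sets, fitted by lmFit, then eBayes with trend (limma 3.58.1, R 4.3.3), two-sided, with Benjamini-Hochberg adjustment over all of them. The fit was tested on simulated data. The number of arrays limits precision. All members were described. Of the lists of donors and heme enzymes, regulators, partner enzymes and other P450 families, up to 4 members with the smallest p were named. Tissue and sex markers were named without that rule. The members and lists were chosen with earlier results of these data known. Alternatives covered normalization, floor, filter, variance model, replicate and station blocks, background level, threshold, and each array left out. Station 1 alone and leaving out BPH 1 with BPL 2, and a count with values under the floor tied, were added after seeing the data.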

Additional observations from a re-analysis of the deposited data

How the results depend on the processing

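The log2 difference of Cyp2e1 kept its direction in all 18 alternatives and its call in 15. The call was lost with no filter (1.48), under a station block (1.55) and on station 1 alone (1.55), which rest on 1 comparison, BPH 3 against the BPL arrays. Without a filter 12422 probe sets in place of 7293 entered the adjustment. The unadjusted limma p of Cyp2e1 also rose, from 4.5e-06 to 0.00026, at the same difference. With 1 array left out the difference ran from 1.37 to 1.63. The count of P450 probe sets called, 1 as reported, was 0 with no filter, 0 with the station block and 0 within station 1. It was 2 without BPH 1 and BPL 2, and ran from 1 to 2 with 1 array left out, the second being Cyp2c39 without BPL 2. The BPL values of Cyp2c39 that remain there lie under the filter's intensity. Over all probe sets the count of 184 was 52 with no filter, 83 without the intensity trend, 18 with the station block and 7 within station 1, and ran from 42 (without BPH 2) to 361 (without BPL 3) with 1 array left out. The count above background, 4, was 9 at the 75th percentile of the reference, 1 against its brightest probe set and 10 at the 40th percentile of all probe sets, and ran from 4 to 5 with 1 array left out.

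Differences near 0 changed sign: Cyp2a12 was 0.071 with the station block and within station 1, 0.14 without BPH 1 and BPL 2, and from -0.27 to 0.034 with 1 array left out. Cyp4f13 was -0.085 with the station block and within station 1, -0.13 without BPH 1 and BPL 2, and from -0.062 to 0.13 with 1 array left out, and Cyp2c38 ran from -0.13 to 0.48 with 1 array left out and was 0.59 with the station block and within station 1. The cause was not tested. Replicate numbers did not pair the arrays: deviations of same-numbered arrays correlated at -0.219, -0.0841 and 0.0116, and no array correlated best with its own number. With the replicate block 1 P450 probe set and 124 of all probe sets were called, and Cyp2e1 was at 1.48 (SE 0.18, limma adjusted p = 0.0072). With 24 of the 33 P450 probe sets under the filter on low values, differences in most of these genes were not tested in the reported fit. With values under the floor tied, 7 in place of 9 did not overlap.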
